A study of Mus musculus with 36 samples.

Results

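The comparison described here is KO against WT macrophages of mouse bone marrow after 3 h of R837 and a further 4 h with actinomycin D (ActD), 6 of the 36 libraries of the series, 3 per group. Its rule takes every library that carries these labels, without regard to measured values. The KO group held libraries with the genotype label N4bp1 KO and the WT group libraries of wild-type mice. Both groups were treated alike: R837 (imiquimod, a small-molecule agonist of TLR7) for 3 h, then ActD, an intercalator that stops RNA polymerases, for 4 h. Macrophages were grown from bone marrow in M-CSF, 1 mouse per library, and the protocol names only wild-type C57BL/6N mice, so the deletion in KO, its background strain, the age of the mice and the doses of both agents are not given in the sources used here. No macrophages without R837 were analysed here. KO and WT below stand for the libraries so labelled.

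TLR7 sits in endosomes, senses single-stranded RNA and guanosine-like compounds, and signals through MyD88, IRAK and TRAF6 to the IkB kinases, which free NF-kB to enter the nucleus. N4BP1 carries an RNase fold of the family of Regnase-1 together with ubiquitin-binding parts. It is known to restrain NF-kB signalling and cytokine output of macrophages after stimulation of TLR7, and caspase-8 can cleave it. Many cytokine messages are short-lived because AU-rich elements and stem-loops of the 3' untranslated region recruit decay proteins such as tristetraprolin (Zfp36) and Regnase-1 (Zc3h12a). With transcription blocked, the level of a message reflects what had been made before the block and how fast it was lost since. Levels below are CPM, counts scaled to a common library size with TMM factors, hence relative to the rest of the transcriptome of a library, and no spike-in values were used here.

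N4bp1 (ENSMUSG00000031652, chromosome 8, 86808160 to 86885258, minus strand, GRCm38) was read first, since it is the targeted gene. After 4 h of ActD its level was 94.2, 92.2 and 76.8 CPM in KO and 63.3, 56.1 and 53.4 CPM in WT. All libraries labelled KO were thus above all libraries labelled WT, by 1.52-fold (log2 difference 0.61 ± 0.08, adjusted p = 8.87e-08), the direction opposite to the label. At 3 h of R837, before ActD, the mean was 84.1 CPM in KO and 134 CPM in WT, and through ActD the KO level stayed between 76.8 and 94.2 CPM in single libraries while the WT mean went to 80.2 CPM at 2 h and 57.6 CPM at 4 h. A count over the whole gene can come from exons outside the deleted part, so it checks neither label, and every direction below is that of the libraries as labelled.

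The 6 libraries held 20271550 to 46107214 counts, with 16070 to 17331 genes detected, 0.0337 to 0.0433% of counts on mitochondrial genes and 13.1 to 15.5% on the 10 highest genes. WT replicate 3 stood apart from the other 2 WT libraries. The root mean square log2 difference was 0.520 between WT replicates 1 and 3 and 0.494 between 2 and 3, against 0.455 between WT replicates 1 and 2 and 0.400 to 0.415 among KO libraries, and limma's sample quality weight was 0.333 in WT replicate 3 and 0.631 to 1.62 in the others. Its deviation from the other WT libraries fell with gene length (Spearman rho = -0.315 across genes, which are not independent replicates), so short transcripts tended to be high in it. Rps14 was at 299, 307 and 518 CPM in the WT libraries and 248, 279 and 268 CPM in KO. Lyz2, lysozyme of macrophages, held 3.29% of its counts, against 2.39 and 2.61% in the other WT libraries and 2.01 to 2.18% in KO. Counts below are therefore also given without WT replicate 3.

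Of 13748 genes tested, 2439 were higher in KO and 2457 lower (17.7% and 17.9% of the genes tested, edgeR quasi-likelihood F test, Benjamini-Hochberg adjusted p under 0.05), together 35.6%. Most of these differences were small: the median was 0.44 on the log2 scale among genes called higher and -0.42 among genes called lower. At least 2-fold differences passed in 446 genes (3.24%), 278 higher (2.02%) and 168 lower (1.22%). The 3 KO libraries lay wholly above the 3 WT libraries in 2815 genes (20.5%) and wholly below in 2700 (19.6%), and 4306 genes were both called and apart. Without WT replicate 3, 1743 genes were higher and 1598 lower of 13995 tested (12.5% and 11.4%), and 3205 of the 4896 calls (65.5%) kept their direction and their call, as did 358 of the 446 of at least 2-fold.

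The even split rests on scaling to the average transcript. Scaled to ribosomal protein and elongation factor genes instead, the median of all genes moved up by 0.28 on the log2 scale, and 4932 genes were higher and 616 lower. Directions of small differences are therefore relative to the chosen scale. Counts of lists on the ribosomal scale below are to be read beside these 4932 higher and 616 lower of 13748 genes. The difference also followed gene length: the shortest 25% of genes (up to 1628 bases) had a median log2 difference of -0.19, with 6.52% higher and 28% lower, and the longest 25% (from 4545 bases) had a median of 0.14, with 25.8% higher and 8.12% lower. With a smooth trend on length removed, 3716 of the 4896 calls (75.9%) and 428 of the 446 of at least 2-fold kept direction and call.

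**Figure D1:**
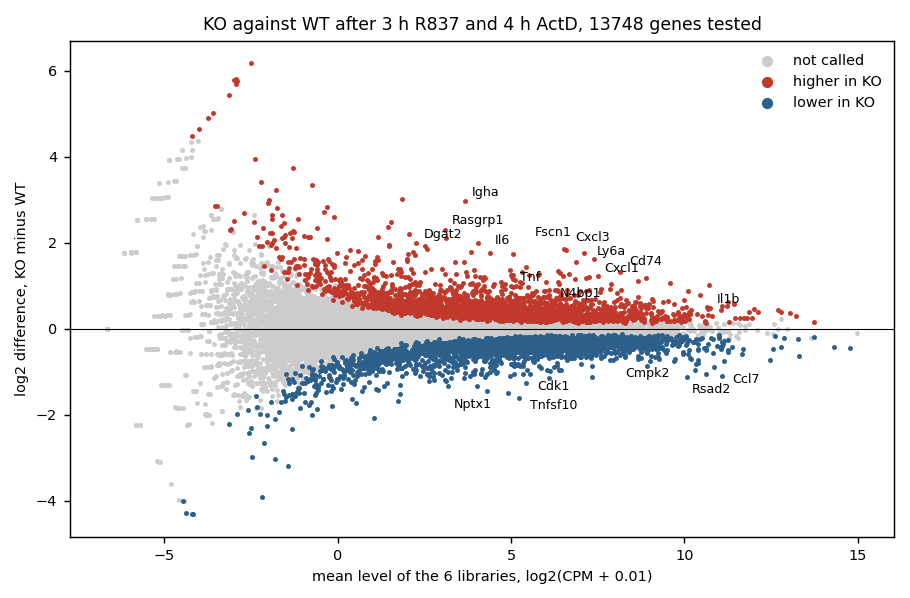
Each point is 1 of 13748 genes: the horizontal axis is the mean level of the 6 libraries after 4 h of ActD and the vertical axis the log2 difference of KO minus WT. Red points (2439) were called higher in KO and blue points (2457) lower. Inflammatory genes such as Cxcl3, Il6 and Cxcl1 lie above, and Tnfsf10, Nptx1, Cmpk2 and Cdk1 below. Differences beyond 4 on the log2 scale belong to genes at or near 0 counts in one group.

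The largest rises in the libraries labelled KO included immunoglobulin genes, surface and signalling proteins of leukocytes, and cytokines. Igha, the constant region of immunoglobulin A heavy chain, was at 20.5, 22.4 and 24.5 CPM in KO and 2.06, 3.38 and 3.01 CPM in WT, which is 7.86-fold higher in KO (log2 difference 2.98 ± 0.15, adjusted p = 1.4e-18). Jchain, which joins immunoglobulin A and M units into polymers, was at 10.2, 7.25 and 10.5 against 2.34, 2.51 and 2.90 CPM, 3.64-fold higher in KO (log2 difference 1.86 ± 0.17, adjusted p = 3.14e-11). Rasgrp1, an exchange factor that loads Ras with GTP, was at 18.4, 12.4 and 11.4 against 3.73, 2.83 and 2.08 CPM, 4.95-fold higher in KO (log2 difference 2.31 ± 0.15, adjusted p = 5.04e-15). In each of these the groups were far apart. Cd4, a coreceptor of helper T cells that some myeloid cells also carry, was at 34.3, 34.1 and 29.5 against 9.59, 10.3 and 8.88 CPM, 3.40-fold higher in KO (log2 difference 1.77 ± 0.11, adjusted p = 8.69e-16). Ly6i and Ly6a, small surface proteins anchored in the membrane by a lipid, were at 14.1 ± 0.665 against 3.25 ± 0.503 CPM (log2 2.11) and 215 ± 11.4 against 62.8 ± 2.20 CPM (log2 1.77). Both belong to a family of similar genes, so the share of reads given to each is uncertain.

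Fscn1, which bundles actin filaments in protrusions of activated dendritic cells, was at 147, 159 and 127 CPM in KO and 42.7, 42.8 and 33.0 CPM in WT, 3.65-fold higher in KO (log2 difference 1.87 ± 0.09, adjusted p = 6.95e-19). Dgat2, which makes triglycerides, was at 28.1, 24.5 and 26.4 against 6.24, 7.67 and 5.81 CPM, 3.99-fold higher in KO (log2 difference 2.00 ± 0.13, adjusted p = 2.01e-15). Adora2a, an adenosine receptor, and Gpr132, a G protein-coupled receptor of macrophages, were at 8.99 ± 0.220 against 2.36 ± 0.616 CPM (log2 1.94) and 22.4 ± 1.45 against 6.54 ± 0.696 CPM (log2 1.78). Without WT replicate 3 these 10 genes kept log2 differences between 1.71 and 3.01, all called. The other 2 of the 12 largest rises were Cxcl3 and Il6, described with the cytokines.

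Among the largest falls, Tnfsf10, which encodes the death ligand TRAIL, was at 19.95, 15.7 and 19.5 CPM in KO and 60.0, 56.2 and 52.6 CPM in WT, 3.04-fold lower in KO (log2 difference -1.61 ± 0.15, adjusted p = 3.5e-11). Nptx1, a secreted pentraxin known from neurons, was at 14.8, 16.3 and 15.8 against 51.1, 44.7 and 36.4 CPM, 2.83-fold lower in KO (log2 difference -1.50 ± 0.12, adjusted p = 6.77e-13). Of the 12 largest falls, 6 encode proteins of mitosis or dividing cells: the kinase Cdk1 (25.1, 29.0 and 22.9 against 50.7, 60.3 and 72.4 CPM), the kinetochore protein Nuf2 (9.26, 9.27 and 9.49 against 20.6, 21.8 and 27.5 CPM), the spindle protein Knstrn, the mitotic kinase Pbk, the spindle-binding Hmmr and Shcbp1 of the midbody. Their log2 differences ran from -1.33 in Knstrn to -1.14 in Hmmr, and no KO library reached a WT library in any of them. Nes, an intermediate filament protein, Aldh1b1, a mitochondrial aldehyde dehydrogenase, and Lyzl4, a lysozyme-like protein, were lower by log2 differences of -1.18, -1.14 and -1.18. Olfr56 was listed at 10.6 ± 2.24 against 29.1 ± 2.95 CPM (log2 -1.43), but in the annotation it shares exon sequence on the same strand with the interferon-induced GTPase gene Ifi47, itself at 1021 against 1674 CPM (log2 -0.71), so its counts cannot be told apart from those of Ifi47.

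Cytokine messages were on balance higher in KO after the block. In the list of cytokines and chemokines, 19 of the 35 members tested were called higher and 6 lower, with a median log2 difference of 0.48, beside a median of 0.00 over all genes. Without WT replicate 3 the counts were 17 higher and 5 lower. Neutrophil chemokines, Tnf, Il6 and interleukin 1 genes were among the rises, and the monocyte chemokines Ccl2 and Ccl7 and the CXCR3 ligands Cxcl10 and Cxcl11 among the falls.

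The neutrophil chemokine genes Cxcl1, Cxcl2 and Cxcl3 lie in the same region of chromosome 5. Cxcl1 was at 249.6, 255 and 253 CPM in KO and 80.2, 71.7 and 93.8 CPM in WT, 3.09-fold higher in KO (log2 difference 1.63 ± 0.11, adjusted p = 5.7e-15). Cxcl2 was at 669, 662 and 638 against 283, 254 and 331 CPM, 2.27-fold higher in KO (log2 difference 1.18 ± 0.09, adjusted p = 3.91e-13). Cxcl3 was at 147, 142 and 159.7 against 43.4, 35.5 and 46.6 CPM, 3.58-fold higher in KO (log2 difference 1.84 ± 0.09, adjusted p = 2.37e-18). In all 3 genes WT replicate 3 was the highest WT library, and it still lay far under the lowest KO library. Csf3, the growth factor of neutrophils (G-CSF), was at 5.33, 5.18 and 4.56 against 2.40, 2.24 and 3.07 CPM, 1.97-fold higher in KO (log2 difference 0.98 ± 0.17, adjusted p = 2.57e-05).

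Tnf, one of the first cytokines that macrophages secrete, was at 46.8, 44.5 and 41.6 CPM in KO and 22.4, 24.6 and 20.3 CPM in WT, 1.97-fold higher in KO (log2 difference 0.98 ± 0.07, adjusted p = 5.97e-15). Il6, an acute-phase cytokine, was at 56.3, 46.9 and 48.9 against 13.99, 14.3 and 17.8 CPM, 3.32-fold higher in KO (log2 difference 1.73 ± 0.13, adjusted p = 7.68e-14). Tnfsf9, the ligand of the costimulatory receptor 4-1BB, was at 18.9, 19.8 and 17.0 against 8.75, 7.72 and 7.12 CPM, 2.36-fold higher in KO (log2 difference 1.24 ± 0.09, adjusted p = 6.16e-14). None of these groups overlapped. Among interleukin 1 genes, Il1b was at 2106, 1945 and 1861 against 1357, 1281 and 1609 CPM, 1.39-fold higher in KO (log2 difference 0.48 ± 0.08, adjusted p = 1.76e-05), with WT replicate 3 nearest to KO. Il1a, chosen after its values were seen, was at 139, 114 and 100.3 against 53.6, 45.1 and 40.3 CPM, 2.54-fold higher in KO (log2 difference 1.35 ± 0.12, adjusted p = 4.99e-11). Il12b, the p40 subunit shared by interleukins 12 and 23, was at 911, 828 and 973 against 502, 532 and 691 CPM, 1.57-fold higher in KO (log2 difference 0.65 ± 0.14, adjusted p = 0.000244). The partner subunits Il23a (log2 1.40) and Il12a (at only 0.565 ± 0.0889 against 0.0792 ± 0.0938 CPM) were called higher as well, and so was Il1rn, the receptor antagonist of interleukin 1 (log2 0.57).

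Other cytokines were level or lower. Il10, which restrains macrophage activation, was at 125, 116 and 99.9 CPM in KO and 129.8, 106 and 108 CPM in WT, overlapping groups with a log2 difference of -0.01 ± 0.10 (adjusted p = 0.942). Ccl5, a T-cell chemokine, was at 942, 943 and 899 against 717, 725 and 771 CPM (log2 0.33 ± 0.13, adjusted p = 0.0398) and was not called without WT replicate 3 (log2 0.36 (adjusted p = 0.062)). Ccl7, a monocyte chemokine chosen after its values were seen, was at 1362, 1296 and 1468 against 2690.4, 2647 and 3418 CPM, 2.12-fold lower in KO (log2 difference -1.09 ± 0.11, adjusted p = 1.61e-10), and WT replicate 3 was its highest library (log2 -0.96 (adjusted p = 5.19e-09) without it). Its neighbour Ccl2, also a monocyte chemokine, had a log2 difference of -0.75, and the CXCR3 ligands Cxcl10 and Cxcl11 of -0.75 and -0.67, all called lower. The levels of Ccl4, Osm, Ifnb1, Lta, Csf2, Lif, Ccl9, Cxcl9 and Cxcl16 did not pass the test.

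**Figure D2:**
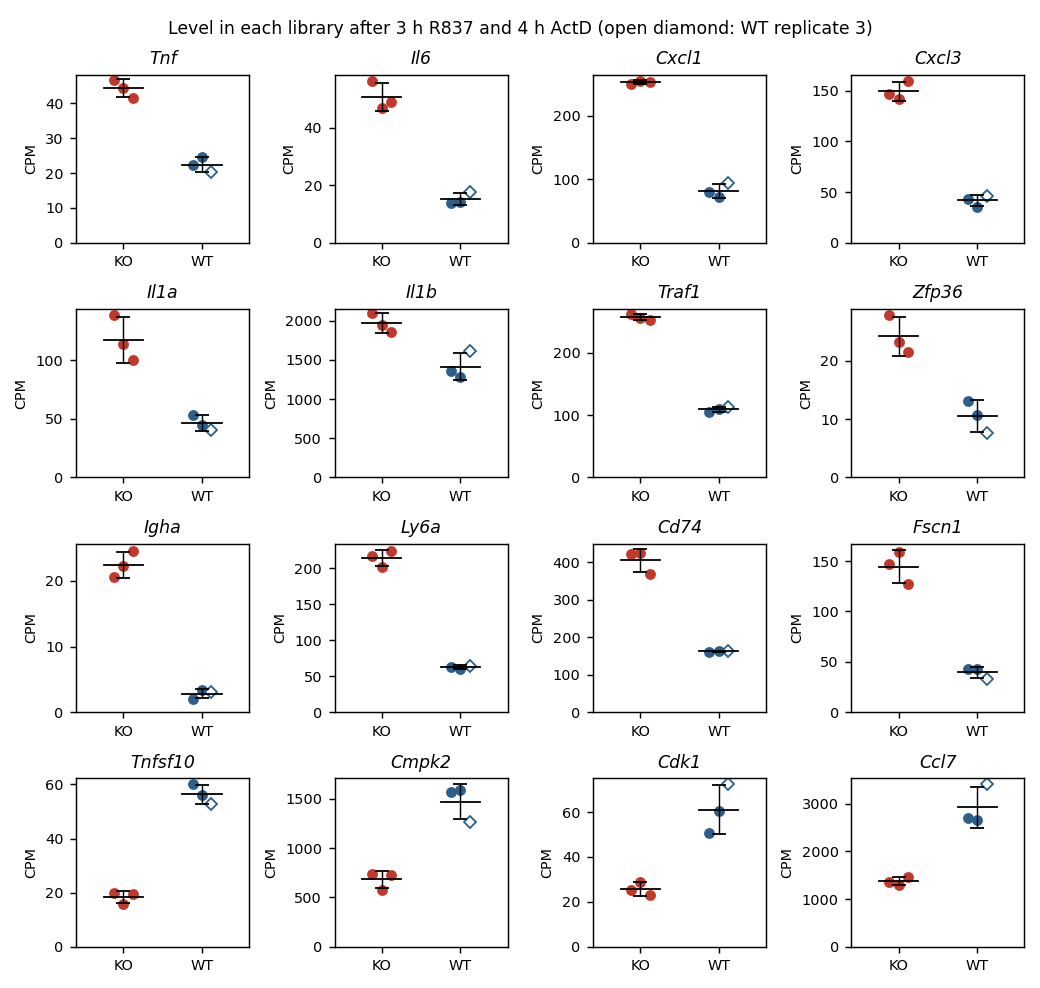
Level in CPM of 16 genes in each of the 6 libraries after 4 h of ActD, with KO in red and WT in blue. The long bar is the group mean, the error bar ± SD of 3 libraries, and the open diamond WT replicate 3. In the upper 3 rows every KO library lies above every WT library, as for Il6 (46.9 to 56.3 against 13.99 to 17.8 CPM), and in the bottom row every KO library lies below every WT library.

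The nonamer TTATTTATT is the core of the AU-rich elements that tristetraprolin recognises. The first match in the 3' untranslated region of 8 genes described here, with 10 bases on each side and the motif in capitals, is shown because the calls are counted by this motif below. Of the 2320 genes called higher that had an annotated region, 2111 held no match. Sequences are of the GENCODE M21 transcripts, 5' to 3', searched on the strand of the transcript only.
Tnf: tttgcacttaTTATTTATTatttatttat
Cxcl1: atttatgtatTTATTTATTccacaaagtg
Cxcl2: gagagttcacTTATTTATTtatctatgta
Cxcl3: ttatcagttgTTATTTATTgaaatggtct
Zfp36: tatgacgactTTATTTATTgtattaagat
Ptgs2: ctgaccatatTTATTTATTtatgtgaaga
Fos: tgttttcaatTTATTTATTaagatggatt
Maff: ttccacactcTTATTTATTgcacgaatct
The windows lie, in GRCm38, at chr17:35199689-35199717 (minus strand) for Tnf, chr5:90892615-90892643 (plus strand) for Cxcl1, chr5:90905316-90905344 (plus strand) for Cxcl2, chr5:90787867-90787895 (plus strand) for Cxcl3, chr7:28376951-28376979 (minus strand) for Zfp36, chr1:150105790-150105818 (plus strand) for Ptgs2, chr12:85477103-85477131 (plus strand) for Fos and chr15:79358778-79358806 (plus strand) for Maff. Tnf held 5 matches, some of them overlapping, Cxcl2 held 4, Cxcl1 and Maff 2 each, and Cxcl3, Zfp36, Ptgs2 and Fos 1 each. These letters had no match in the annotated 3' untranslated regions of Il6, Il1a, Il1b, Csf3, Il12b, Ier3, Tnfsf9, Il10, Ccl7 and Socs3. A match is a description of sequence only.

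Over all 11617 tested genes with an annotated 3' untranslated region, 92.9% held no match. Of those 10792 genes, 19.6% were higher in KO and 19.4% lower, near the 20% and 18.8% of all 11617. The 658 genes with 1 match had 23.4% higher and 11.1% lower, the 104 with 2 matches 33.7% and 12.5%, and the 63 with 3 or more 31.7% and 17.5%. Without WT replicate 3 the shares called higher were 13.9%, 17.2%, 20.2% and 28.6% in the same order. The median length of the region was 893 bases without a match and 2040, 2670 and 2930 bases in the 3 classes with one, so the part of length was not tested.

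By known biology rather than sequence, the list of transcripts with AU-rich elements stood at 17 higher and 2 lower of 27 tested (median log2 0.65), and the counts were the same without WT replicate 3. Members beyond the cytokines included Ptgs2, the inducible cyclooxygenase (1612, 1353 and 1309.6 against 919.7, 709 and 681 CPM, log2 0.89), and Socs3, an inhibitor of gp130 signalling (9.62 ± 0.584 against 5.48 ± 0.384 CPM, log2 0.80). The called falls were Ccl2 and Plau, urokinase (log2 -0.51). Of the targets of Regnase-1, 13 were higher and 1 lower of 15 tested (median 0.89), and the same counts were found without WT replicate 3. The list overlaps the cytokines. It also holds Lcn2, a siderophore-binding protein (257 ± 13.8 against 178 ± 8.91 CPM, log2 0.53), and Nfkbiz, a nuclear IkB protein (log2 0.57), and its 1 fall was Tfrc, the transferrin receptor (609.6, 537 and 657 against 924, 762 and 830.0 CPM, log2 -0.48). Zc3h12a itself was at 4.53 ± 0.118 against 3.82 ± 0.598 CPM, and its log2 difference of 0.25 did not pass (adjusted p = 0.175).

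Genes that encode decay proteins were examined as a list of their own: 18 of the 39 members tested were called higher and 4 lower, with a median log2 difference of 0.25, and without WT replicate 3 the counts were 13 higher and 1 lower. These genes are long (median 4618 bases), and with the trend on length removed 13 were higher and 4 lower, median 0.13. Zfp36, tristetraprolin, was at 27.8, 23.2 and 21.5 CPM in KO and 13.1, 10.6 and 7.67 CPM in WT, 2.32-fold higher in KO (log2 difference 1.21 ± 0.12, adjusted p = 3.24e-10), with WT replicate 3 the lowest library. Hnrnpd, which encodes the AU-rich element binder AUF1, was at 43.7, 42.6 and 46.9 against 28.8, 25.4 and 25.2 CPM, 1.68-fold higher in KO (log2 difference 0.75 ± 0.09, adjusted p = 3.95e-08). Cnot1, the scaffold of the CCR4-NOT deadenylase, was at 63.4, 57.9 and 55.3 against 45.4, 49.8 and 36.9 CPM, 1.34-fold higher in KO (log2 difference 0.42 ± 0.09, adjusted p = 0.000261). Lower calls were Xrn1, the 5' exonuclease (log2 -0.28), Parn, Cnot8 and Zc3h12d, of which Xrn1 alone was also called without WT replicate 3.

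Transcript lifetime was read from other libraries of the series, as the log2 change in WT from 3 h of R837 to 2 h of ActD. These libraries may be of the same mice as those compared. Of the 780 genes that had lost more than 2 log2 units, 16.5% were higher in KO after 4 h and 2.18% lower (median log2 difference 0.29). In the class from -2 to -1 the shares were 23.7% and 3.28%, and from -1 to -0.5 they were 25.3% and 6.47%. Among 9057 genes within 0.5 of no change, 17.5% were higher and 20.9% lower, and among 1421 genes that gained more than 0.5 relative to the rest, 8.16% were higher and 29.6% lower. Over all genes tested 17.7% were higher and 17.9% lower. Calls among short-lived transcripts were thus mostly higher in KO, and those among long-lived ones more often lower. The share called higher in the first class was not above that of all genes, whereas its share called lower was far below. Calls of at least 2-fold were 4.62% higher and 1.03% lower in the first class, against 2.02% and 1.22% of all genes. They were 1.29% and 1.04% within 0.5 of no change, and even in the last class, at 2.39% higher and 2.46% lower. At 3 h of R837, before ActD, the median difference was already 0.16, 0.12 and 0.09 in the 3 classes of loss, and -0.02 in the other two. Without WT replicate 3 the first class stood at 13.2% and 0.385% and the last at 7.67% and 15.6%. Median gene length fell from 3740 bases in the first class to 1720 bases in the last, and which of lifetime and length the shares follow was not tested.

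**Figure D3:**
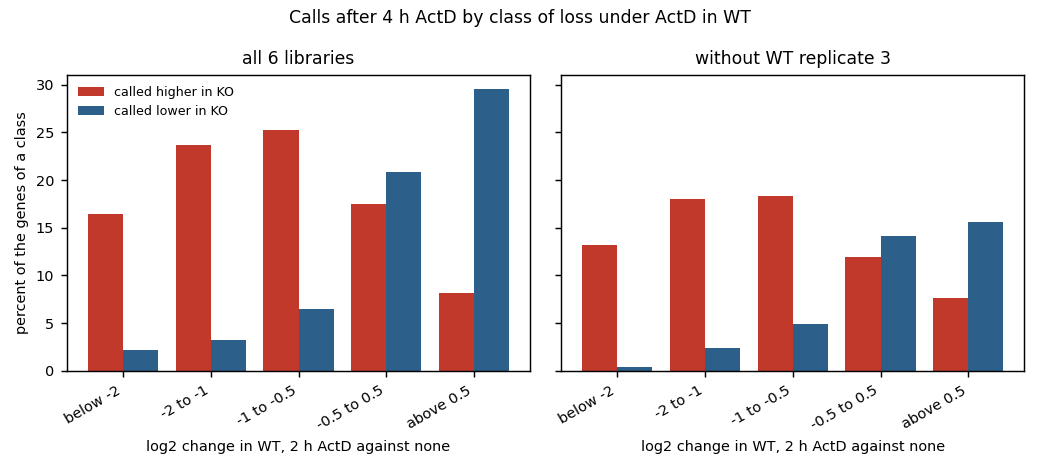
Percent of genes called higher (red) or lower (blue) in KO after 4 h of ActD, in 5 classes of log2 change in WT from no ActD to 2 h of ActD, with all 6 libraries at left and without WT replicate 3 at right. Calls in the 3 classes of loss were mostly higher, as 16.5% against 2.18% in the class below -2, and the class above 0.5 had more lower calls, in both panels. Over all genes, 17.7% were higher and 17.9% lower with all 6 libraries.

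Genes of the NF-kB pathway itself, many of which NF-kB induces as feedback, were higher in KO: 20 of the 26 members tested were called higher and 2 lower, with a median log2 difference of 0.54, and 21 higher and 2 lower without WT replicate 3. Traf1, an adaptor of TNF receptors, was at 262, 255 and 253 CPM in KO and 106, 109.8 and 114 CPM in WT, 2.34-fold higher in KO (log2 difference 1.23 ± 0.05, adjusted p = 2.97e-20). Nfkbie, the inhibitor IkB epsilon, was at 99.0, 97.9 and 107 against 51.0, 60.2 and 51.1 CPM, 1.87-fold higher in KO (log2 difference 0.90 ± 0.07, adjusted p = 1.03e-13). Birc3, the ubiquitin ligase cIAP2, was at 75.4, 66.1 and 63.3 against 41.2, 40.6 and 41.7 CPM, 1.66-fold higher in KO (log2 difference 0.73 ± 0.06, adjusted p = 3.54e-12). Tnip1, a ubiquitin-binding partner of A20, was at 409, 398 and 366 against 249, 259 and 231 CPM, 1.59-fold higher in KO (log2 difference 0.67 ± 0.06, adjusted p = 3.2e-11). No WT library reached a KO library in these 4 genes.

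The subunits of the transcription factor rose as well: log2 differences were 0.90 for Nfkb2, 0.78 for Relb, 0.78 for Rela, 0.53 for Rel and 0.40 for Nfkb1, all called. Inhibitors other than Nfkbie were Nfkbib (log2 0.68), Nfkbia (log2 0.29) and the deubiquitinase Tnfaip3, A20 (log2 0.66). Called lower were Cd83, a surface marker of activation (log2 -0.56), and Tnip3 (log2 -0.55). Cd40, Cyld, Ikbke and Tnip2 did not pass.

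In the list of the IkB kinase family and the caspase-8 complex, 11 of the 26 members tested were called higher and 2 lower, with a median log2 difference of 0.15. The counts without WT replicate 3 were 11 higher and 1 lower. Birc2, the ligase cIAP1 beside Birc3, was at 35.4, 32.4 and 37.6 against 17.8, 14.9 and 20.6 CPM, 1.99-fold higher in KO (log2 difference 0.99 ± 0.09, adjusted p = 1.2e-10). Rnf31, the catalytic subunit of the linear ubiquitin ligase, was at 27.7, 25.1 and 24.8 against 18.1, 16.6 and 12.7 CPM, 1.64-fold higher in KO (log2 difference 0.71 ± 0.12, adjusted p = 6.42e-06). Cflar, the caspase-8 inhibitor cFLIP, was at 294, 250.1 and 255 against 219, 195 and 159 CPM, 1.40-fold higher in KO (log2 difference 0.48 ± 0.08, adjusted p = 1.67e-05). Of the kinases, Ikbkb (IKK beta) had a log2 difference of 0.29 and was called, whereas Chuk (IKK alpha, 0.16), Tbk1 (-0.11), Ikbke (0.14) and the scaffold Ikbkg (-0.11) did not pass. Casp8 was at 146, 126 and 144 against 167, 176 and 178 CPM, 1.25-fold lower in KO (log2 difference -0.32 ± 0.07, adjusted p = 0.00027).

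Upstream, in the Toll-like receptor pathway, 12 of the 29 members tested were called higher and 2 lower, with a median log2 difference of 0.17 (10 higher and 2 lower without WT replicate 3). With the trend on gene length removed, 11 were higher and 5 lower, median 0.11. Irak3, a brake on IRAK signalling, was at 79.2 ± 2.97 against 52.2 ± 3.06 CPM (log2 0.60), the transcription factor Irf5 at 96.7 ± 5.74 against 66.9 ± 5.91 CPM (log2 0.53) and the lipopeptide coreceptor Tlr1 at 180.5 ± 18.2 against 141 ± 5.08 CPM (log2 0.36). Tlr4, the receptor of lipopolysaccharide, was lower, at 30.4 ± 2.99 against 44.4 ± 3.76 CPM (log2 -0.54). Tlr7, the receptor that R837 engages, was at 195, 153 and 166 against 170.1, 138 and 129.7 CPM, and its log2 difference of 0.24 did not pass (adjusted p = 0.0517), nor did Myd88 (log2 0.06) or Traf6 (log2 0.11).

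Immediate early genes and MAP kinase phosphatases, which a stimulus induces within minutes and whose messages decay fast, had 13 of 28 called higher and 1 lower (median log2 0.57), and 10 higher and 1 lower without WT replicate 3. Maff, a small Maf factor, was at 44.6, 46.5 and 44.8 against 18.5, 18.7 and 15.7 CPM, 2.57-fold higher in KO (log2 difference 1.36 ± 0.07, adjusted p = 2.7e-17). Ier3, an early response gene tied to survival, was at 5.50, 6.45 and 4.63 against 3.40, 4.11 and 2.68 CPM, 1.597-fold higher in KO (log2 difference 0.68 ± 0.13, adjusted p = 4.97e-05). Atf3, a stress-induced repressor, was the fall, at 119.6, 109.8 and 116 against 201, 205 and 221 CPM, 1.82-fold lower in KO (log2 difference -0.86 ± 0.07, adjusted p = 2.16e-12). Several members were near the limit of detection at 4 h, such as Fos at 1.41, 1.65 and 1.15 against 0.836, 0.777 and 0.767 CPM, where a few counts decide a fold.

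Of the SOCS and STAT feedback genes, 8 of 15 were called higher and 1 lower (median log2 0.49), with the same counts without WT replicate 3. These included Il10ra, the interleukin 10 receptor (51.8 ± 3.58 against 31.4 ± 2.68 CPM, log2 0.73), Stat5a (64.8 ± 7.78 against 36.3 ± 3.59 CPM, log2 0.84), the kinase Jak2 (498 ± 53.8 against 355 ± 33.8 CPM, log2 0.49) and the cytokine-induced kinase Pim1 (16.3 ± 0.936 against 11.1 ± 1.27 CPM, log2 0.55). The fall was Il4ra, the interleukin 4 receptor (log2 -0.24).

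The type I interferon response was mixed, with more falls than rises: 6 of the 35 members tested were called higher and 15 lower, with a median log2 difference of -0.10. The counts were 5 higher and 13 lower without WT replicate 3. On the ribosomal scale the balance turned to 13 higher and 7 lower, median 0.18. All 13748 genes stood there at 4932 higher and 616 lower, median 0.28. The sign of the list median thus depends on the scale, while it lay below the median of all genes on both. Single members fell under both scales, among them Cmpk2, Rsad2, Cxcl10 and Ifit2. Cmpk2, a mitochondrial nucleotide kinase induced by interferon, was at 736, 578 and 729 CPM in KO and 1563, 1585 and 1263 CPM in WT, 2.16-fold lower in KO (log2 difference -1.11 ± 0.11, adjusted p = 3.75e-10), and -0.85 on the ribosomal scale. Rsad2, the antiviral enzyme viperin, was at 1198, 848 and 1058 against 2405, 2222 and 1746 CPM, 2.05-fold lower in KO (log2 difference -1.04 ± 0.12, adjusted p = 1.97e-08). Cxcl10 was at 1768, 1586 and 1704 against 2983, 2964 and 2579 CPM, 1.69-fold lower in KO (log2 difference -0.75 ± 0.07, adjusted p = 2.35e-10). Ifit2, which binds foreign RNA or its translation machinery, was at 1063, 805 and 956 against 1751, 1658 and 1555 CPM, 1.76-fold lower in KO (log2 difference -0.81 ± 0.12, adjusted p = 2.45e-06). Members called higher included the RNA sensor Oas3 (log2 0.62) and the factors Irf7 (0.39) and Irf9 (0.31).

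Among inflammasome and cell death genes, 7 of the 28 members tested were called higher and 10 lower, with a median log2 difference of -0.15 (5 higher and 7 lower without WT replicate 3, and 10 higher and 4 lower, median 0.12 on the ribosomal scale). The median of all genes on that scale was 0.28. Mefv, which encodes pyrin, was at 52.3, 47.1 and 42.1 against 17.1, 20.6 and 21.9 CPM, 2.38-fold higher in KO (log2 difference 1.25 ± 0.09, adjusted p = 1.96e-13). Nlrp3, the best known inflammasome sensor, was at 136, 117 and 123 against 71.6, 77.4 and 64.7 CPM, 1.76-fold higher in KO (log2 difference 0.82 ± 0.09, adjusted p = 5.43e-09). In the other direction, the DNA sensor Aim2 was at 26.9, 25.8 and 28.2 against 47.0, 46.5 and 52.8 CPM, 1.80-fold lower in KO (log2 difference -0.85 ± 0.10, adjusted p = 3.54e-08). Casp1, which matures interleukin 1 beta, was called lower with a log2 difference of -0.45.

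Effector genes of activated macrophages were mostly higher: 23 of the 31 members tested were called higher and 3 lower, with a median log2 difference of 0.53, and 24 higher and 3 lower without WT replicate 3. Mmp9, gelatinase B, was at 57.2, 62.4 and 51.9 against 22.8, 22.7 and 23.0 CPM, 2.50-fold higher in KO (log2 difference 1.32 ± 0.09, adjusted p = 5.7e-15). Mmp14, a membrane-bound matrix protease, was at 592, 549 and 504 against 255, 273 and 235 CPM, 2.15-fold higher in KO (log2 difference 1.11 ± 0.08, adjusted p = 1.87e-14). Ptges, which makes prostaglandin E2 from the product of Ptgs2, was at 504 ± 26.7 against 299.6 ± 6.49 CPM (log2 0.75), and Cd38, an enzyme that consumes NAD, at 165 ± 9.68 against 90.2 ± 7.78 CPM (log2 0.87). Called lower were Mmp12 (log2 -0.96), Arg1 (-0.86) and Plau. Nos2, the inducible nitric oxide synthase, had a log2 difference of 0.08 and did not pass.

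The MHC class II chains Cd74, H2-Aa, H2-Eb1 and H2-Ab1, which serve the presentation of peptides to helper T cells, were higher in KO. In the list of MHC class II and costimulation, of 14 members tested, 5 were called higher and none lower (median log2 0.23, 5 higher and 0 lower without WT replicate 3). Cd74, the invariant chain, was at 421, 424 and 369.6 CPM in KO and 161, 162 and 163 CPM in WT, 2.50-fold higher in KO (log2 difference 1.32 ± 0.09, adjusted p = 5.38e-15). H2-Aa was at 183, 187 and 184 against 96.4, 101 and 105 CPM, 1.83-fold higher in KO (log2 difference 0.88 ± 0.06, adjusted p = 5.38e-15). H2-Eb1 and H2-Ab1, chains of the same kind of receptor, had log2 differences of 0.90 and 0.80. The fifth was Tnfsf4, the ligand of OX40 (log2 0.64). Costimulatory Cd80 (0.21), Cd86 (-0.16) and Cd40 (-0.04) and the master regulator Ciita (log2 0.61, at 0.376 ± 0.259 against 0.270 ± 0.140 CPM) did not pass.

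Markers of other cells that a bone marrow culture can hold were counted beside these. B and plasma cell markers summed to 84.9 to 88.3 CPM in KO and 36.8 to 42.5 CPM in WT: 4 of 9 tested were higher, none lower, and Pax5, Ebf1 and Vpreb1 had at most 3 counts in every library. Apart from Igha and Jchain they included Ighm at 50.4, 48.4 and 44.5 against 28.1, 31.9 and 26.7 CPM (log2 0.72). Fibroblast and stroma markers summed to 50.3 to 60.9 against 21.6 to 27.3 CPM, with 8 of 11 tested higher, such as Col1a1 at 4.36, 4.99 and 5.38 against 1.39, 1.87 and 2.25 CPM (log2 1.40) and Dcn at 4.32, 4.28 and 6.41 against 1.73, 1.74 and 2.58 CPM (log2 1.32). Dendritic cell markers summed to 212 to 239.7 against 126.8 to 132.9 CPM with 4 of 10 higher and 1 lower, and Zbtb46, Xcr1, Clec9a and Cd209a had at most 3 counts. Most of that sum was H2-Ab1 and Ccl22, which macrophages also express. T and NK cell markers summed to 104 to 112 against 70.9 to 85.5 CPM, with Cd3e, Trbc1, Trbc2, Nkg7 and Gzma at 3 counts or fewer in every library. Most of that sum was Il7r (73.3 ± 3.75 against 65.9 ± 6.90 CPM, not called) and, in KO, Cd4.

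Neutrophil markers summed to 1024 to 1092 against 857 to 1094 CPM, overlapping groups with 4 of 15 members higher, and osteoclast markers to 408 to 433 against 324 to 361 CPM. Of 7 osteoclast markers tested, 3 were called higher and 1 lower. Acp5 was at 215.4, 223.5 and 196.4 against 119.8, 128.9 and 145 CPM, while Atp6v0d2 was at 121.1, 116.7 and 130.2 against 158.7, 145.5 and 156.5 CPM. Mast cell and erythroid markers summed to at most 7.67 and 0.868 CPM in any library. Macrophage markers, which define the labelled cells, were abundant in both groups and summed to 54070 to 56170 CPM in KO and 59210 to 75380 CPM in WT. The largest member of that sum was Lyz2, at 22430, 23930 and 24240 CPM in KO and 27050, 29530 and 40140 CPM in WT. WT replicate 3 was thus its highest library. Of the 17 macrophage markers, 4 were called higher and 7 lower (2 higher and 4 lower without WT replicate 3, and 7 higher and 3 lower, median 0.25 on the ribosomal scale, against a median of -0.02). Fcgr1, the high-affinity Fc receptor, was at 996, 930.2 and 1009 against 1574, 1666 and 1837 CPM, 1.73-fold lower in KO (log2 difference -0.79 ± 0.07, adjusted p = 1.14e-11). Fcgr3, a low-affinity Fc receptor, was at 1298, 1350.5 and 1241 against 2076, 2233 and 2828 CPM, 1.84-fold lower in KO (log2 difference -0.88 ± 0.10, adjusted p = 2.6e-09). Other macrophage markers lay higher in KO. Adgre1 was at 3382, 2932 and 2857 against 2686, 2638 and 2360 CPM (log2 0.26), called with all 6 libraries but not without WT replicate 3. Csf1r was at 1205, 1169 and 1011 against 948.5, 956.4 and 825.8 CPM. Cd14 was at 4303, 4321 and 4176 against 3479, 3570 and 3666 CPM, and Itgam at 253, 248.8 and 246.4 against 201.7, 198.4 and 188.1 CPM. In bulk libraries, more cells of a type and more RNA per cell cannot be told apart, and the part of these cells in the rises of Igha, Jchain, Cd4 and Cd74 was not tested.

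Proliferation genes had the highest share of falls among the 23 pathway lists: 0 of the 26 members tested were called higher and 22 lower, with a median log2 difference of -0.74, 0 higher and 21 lower without WT replicate 3 and 2 higher and 14 lower, median -0.46 on the ribosomal scale. Beside Cdk1, Rrm2, a subunit of ribonucleotide reductase, was at 10.6, 12.1 and 12.2 against 22.0, 24.7 and 24.3 CPM, 2.04-fold lower in KO (log2 difference -1.03 ± 0.09, adjusted p = 1.21e-11). Birc5, survivin, was at 20.4, 20.7 and 19.2 against 37.3, 42.6 and 48.1 CPM, 2.12-fold lower in KO (log2 difference -1.08 ± 0.10, adjusted p = 3.59e-11). Ccnb2, cyclin B2, was at 11.7, 13.4 and 11.1 against 25.6, 24.6 and 28.0 CPM, 2.17-fold lower in KO (log2 difference -1.12 ± 0.11, adjusted p = 4.82e-10). Mki67, Mcm2, Mcm4 and Cdc20 did not pass, with log2 differences from -0.22 (Mcm2) to 0.30 (Mki67).

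Cholesterol synthesis genes were mostly lower: 1 of the 22 members tested was called higher and 16 lower, with a median log2 difference of -0.35, 0 higher and 16 lower without WT replicate 3. Hmgcs1, which makes HMG-CoA, was at 87.3, 87.5 and 94.0 against 145, 129.7 and 129 CPM, 1.503-fold lower in KO (log2 difference -0.59 ± 0.06, adjusted p = 3.19e-09). Msmo1, a sterol demethylating oxidase, was at 241, 247 and 231 against 376, 343 and 418 CPM, 1.58-fold lower in KO (log2 difference -0.66 ± 0.08, adjusted p = 1.23e-08). Sc5d (log2 -0.49) and Insig1 (log2 -0.44), which holds back SREBP, were close to these. The differences are modest, and on the ribosomal scale the list stood at 1 higher and 4 lower, median -0.07. The 1 call higher was Srebf2 (log2 0.30), which was not called without WT replicate 3.

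Fewer genes of the ribosomal and respiratory chain lists were called lower without WT replicate 3, as was so over all genes (17.9% lower with it and 11.4% without). Of ribosomal proteins and elongation factors, 23 of 46 were called lower and 1 higher (median log2 -0.32), but 1 higher and 11 lower without that library. These genes are short (median 1084 bases), and with the trend on length removed 2 were higher and 16 lower, median -0.17. For nuclear-encoded respiratory chain genes (median 1623 bases) the counts were 11 lower and 1 higher of 23, median -0.26. They were 0 higher and 7 lower without WT replicate 3, and 2 higher and 6 lower, median -0.14, with the trend on length removed. On the ribosomal scale 9 were higher and 4 lower, median 0.02, beside a median of 0.28 for all genes there. Ndufa4 was at 178, 190.3 and 184 against 262, 276 and 369 CPM (log2 -0.72). None of 10 mitochondrially encoded genes was called at an adjusted p under 0.05 by edgeR, 0 passed at an unadjusted p under 0.05, and limma with quality weights called 1 and DESeq2 none. Of the zinc-finger Zfp genes, 5 of 29 were lower and none higher, a share of falls near the 17.9% of all genes, and 1 lower without WT replicate 3, namely Zfp40 (log2 -1.37). The median of that list was -0.22, and 0.07 on the ribosomal scale.

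The remaining lists held calls in both directions. Over all genes tested, 17.7% were higher and 17.9% lower (12.5% and 11.4% without WT replicate 3). The shares of falls in the lysosome, p53 and NRF2 lists were near that of all genes. On the ribosomal scale nearly all calls of the remaining lists were higher, as were most calls over all genes (4932 higher and 616 lower of 13748). The counts there were 11 higher and 2 lower for glycolysis and hypoxia, 17 and 0 for the lysosome, 9 and 0 for p53 targets, and 10 and 1 for NRF2 and the integrated stress response. Glycolysis and hypoxia genes had 7 higher and 8 lower of 24 (median log2 0.00): Adm, adrenomedullin, at 26.4, 28.5 and 24.9 against 10.3, 12.5 and 12.1 CPM (log2 1.19), Hk2 (log2 0.67) and Pfkfb3 (log2 0.66) rose, and Pgk1 at 13.4, 15.1 and 16.0 against 21.4, 21.2 and 23.9 CPM (log2 -0.58) fell. Lysosome genes had 8 higher and 5 lower of 25, with Ctss, cathepsin S, at 9514 ± 242 against 7345 ± 318 CPM (log2 0.37) and Ctsl, cathepsin L, at 9095 ± 176 against 10675 ± 788 CPM (log2 -0.23, turning to 0.05 on the ribosomal scale). Of p53 targets 6 were higher and 4 lower of 20, and 4 higher and 1 lower without WT replicate 3. Mdm2, the ligase of p53, was at 151, 136 and 152 against 95.7, 98.3 and 95.7 CPM (log2 0.60), and Cdkn1a, p21, at 1256, 1214 and 1238 against 854, 798 and 692 CPM (log2 0.66). Genes of NRF2 and the integrated stress response had 7 higher and 4 lower of 20, led by the autophagy receptor Sqstm1 at 1741, 1855 and 1770.4 against 989, 1038 and 1055 CPM (log2 0.80) and the cystine transporter Slc7a11 at 50.9, 50.7 and 54.4 against 27.5, 25.04 and 20.7 CPM (log2 1.09).

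**Figure D4:**
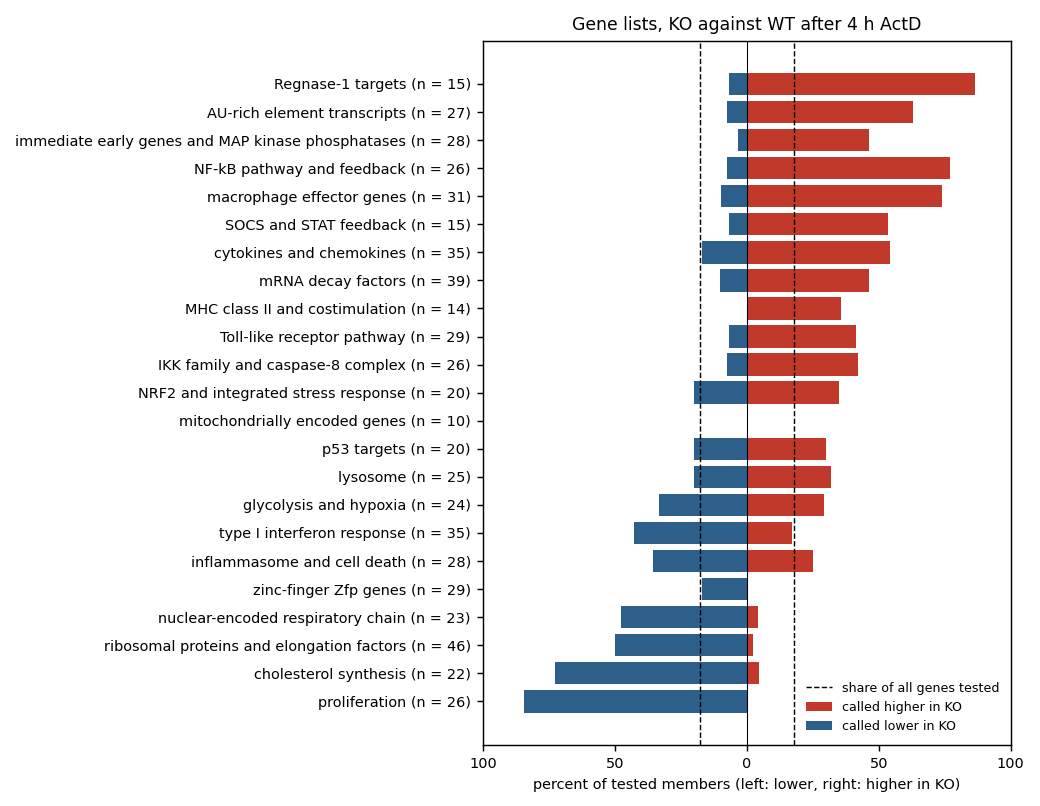
Percent of the tested members of 23 gene lists called higher (red, right) or lower (blue, left) in KO after 4 h of ActD, ordered by median log2 difference, with n the members tested. Dashed lines mark the shares of all 13748 genes, 17.7% higher and 17.9% lower. Targets of Regnase-1 (13 of 15 higher) stand at the top and proliferation genes (22 of 26 lower) at the bottom.

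The differences after 4 h of ActD were set beside those of the other conditions, measured in separate libraries that may come from the same mice. Of the 2439 genes higher in KO after 4 h of ActD, 1521 (62.4%) were also called higher at 3 h of R837, which is 72.9% of the 2087 called there (15.2% of genes). Of the 2457 lower, 1372 (55.8%) were called lower at 3 h, or 79.3% of 1731 (12.6% of genes). Calls in opposite directions numbered 3 and 3. At 2 h of ActD, where 14.7% of genes were higher and 15.4% lower, 1567 higher and 1544 lower calls were shared and none were opposite (64.3% and 62.8% of the calls at 4 h, 77.5% and 72.7% of those at 2 h). At 7 h of R837, the same total time without the block, 15.5% of genes were higher and 15.1% lower. There 1106 higher (45.4% of the calls after ActD, 52.0% of those at 7 h) and 922 lower (37.5% and 44.4%) were shared, and 124 and 75 were opposite.

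By the interaction test 40 genes (0.291%) had a genotype difference after 4 h of ActD that differed from the one at 3 h, 29 more positive (0.211%) and 11 more negative (0.08%), and 1157 at an unadjusted p under 0.05 (8.42%). The count rests on single libraries: 19 of the 40 were also called without WT replicate 3, 9 were called with each of the 12 libraries left out in turn, though all 40 kept their sign, and 6 were called in a fit of the 12 libraries alone. N4bp1 led the 9, with an interaction of 1.27 ± 0.11, adjusted p = 4.09e-10. The other 8 were Btla, Dgat2, Srsf4, Sqstm1, Rcsd1, Il4i1, H2-Eb1 and H2-Aa, all more positive after ActD. Btla, Il4i1 and H2-Eb1 lost the call in the fit of the 12 libraries alone (adjusted p = 0.101, 0.101 and 0.0619 by edgeR), and Dgat2 lost it on the ribosomal scale (adjusted p = 0.0614). Apart from Btla and Dgat2 these 8 are named after their values were seen.

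Over the 4 h of ActD the mean level of Sqstm1 went from 2537 to 1789 CPM in KO and from 2258 to 1027 CPM in WT (interaction 0.63 ± 0.08, adjusted p = 2.38e-06). Rcsd1, which encodes a regulator of actin capping, went from 154 to 79.9 CPM in KO and from 97.9 to 33.0 CPM in WT (0.62 ± 0.08, adjusted p = 2.38e-06). H2-Aa went from 150.4 to 185 CPM in KO and from 122 to 101 CPM in WT (0.57 ± 0.08, adjusted p = 5.76e-05), and H2-Eb1 from 89.8 to 104 CPM in KO and from 71.6 to 55.8 CPM in WT (0.58 ± 0.09, adjusted p = 0.000292). For both class II chains the relative level thus went up in KO and down in WT. Dgat2, at a log2 difference of 1.09 before ActD and 2.00 after 4 h, had an interaction of 0.90 ± 0.17, adjusted p = 0.00922. Srsf4, a splicing factor, had 0.74 ± 0.11, adjusted p = 0.000162, and Il4i1, an amino acid oxidase of activated myeloid cells, 0.58 ± 0.11, adjusted p = 0.00701. Btla, an inhibitory receptor at only 4.19, 2.26 and 4.19 CPM in KO and 1.73, 1.599 and 2.79 CPM in WT, with overlapping groups, had 1.45 ± 0.25, adjusted p = 0.00206.

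The largest interactions by size were of low genes and were lost when some libraries were left out. Ccr7, the lymph node homing receptor, was at 1.07, 1.04 and 2.08 against 0.167, 0.183 and 0.219 CPM (interaction 2.05 ± 0.44, adjusted p = 0.027) and with as few as 3 counts in a WT library, and kept its call in 7 of 12 such fits. Slco4a1, an organic anion transporter, was at 5.02, 4.99 and 3.86 against 0.613, 1.37 and 0.603 CPM (1.52 ± 0.30, adjusted p = 0.00994) and kept it in 10, and Fos (1.13 ± 0.25, adjusted p = 0.0366) in 3. Both Ccr7 and Slco4a1 lost the call without WT replicate 3. In the negative direction, genes were ranked at a mean of at least 5 CPM over the libraries of both conditions. The 5 largest were Tmem51 (-0.73), Aldh1b1 (-0.71), Phf11d (-0.62), Cd200r4 (-0.59) and Epsti1 (-0.54), which kept the call in 4, 2, 3, 5 and 3 of 12. Tmem51 passed through its level at 3 h (mean 22.25 CPM in KO and 14.86 CPM in WT), and after ActD was at 2.845 and 3.088 CPM. None of Tnf, Il6, Il1b, Il12b, Il10, Cxcl1, Cxcl2, Csf3 and Ccl5 had a called interaction with 3 h, with values from -0.09 (Ccl5) to 0.48 (Cxcl2). Between 4 h and 2 h of ActD no gene (0.0%) had a called interaction by edgeR (985, 7.16%, at an unadjusted p under 0.05, and 5 called by DESeq2). In simulated data the tests against 3 h and 2 h recovered 35.8% and 34.3% of 1.5-fold changes. A missing call therefore does not show that the genotype difference stayed the same.

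**Figure D5:**
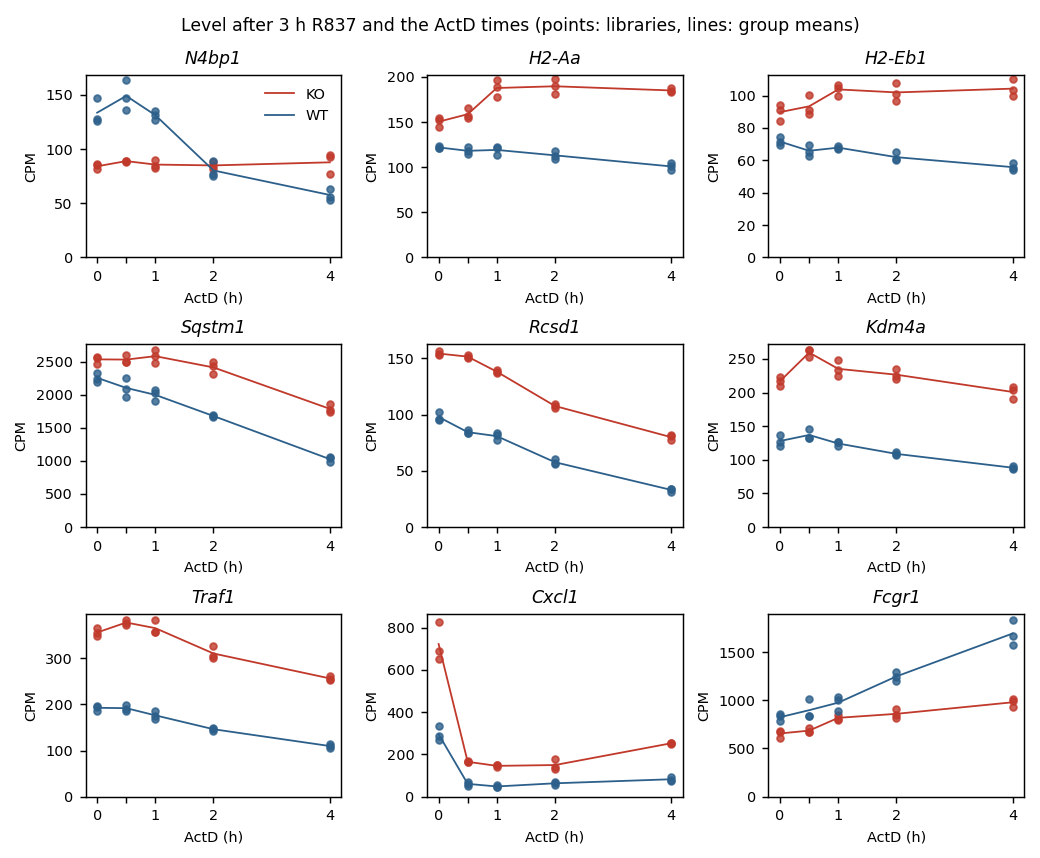
Level in CPM against hours of ActD after 3 h of R837, for KO (red) and WT (blue), with 1 point per library and a line through the group means. N4bp1 stays between 76.8 and 94.2 CPM in KO and falls in WT, meeting it at 2 h, the class II genes H2-Aa and H2-Eb1 rise in KO and fall in WT, and Fcgr1 rises more in WT. Cxcl1 falls by 0.5 h and is higher at 4 h than at 1 h in both groups. In KO it is at 138 to 149 CPM at 1 h and 249.6 to 255 CPM at 4 h, in WT at 44.2 to 54.3 and 71.7 to 93.8 CPM. All levels are relative to the rest of a library.

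Against 7 h of R837, where transcription ran on for the same total time, 2013 genes (14.6%) had a different genotype difference, 1091 more positive (7.94%) and 922 more negative (6.71%). Of the 35 cytokines and chemokines 20 were more negative and 1 more positive, that is, their excess in KO was smaller, or turned, after the block. Il6 had a log2 difference of 1.73 after ActD and 3.69 at 7 h (interaction -1.96 ± 0.17, adjusted p = 2.32e-11). Il1b had 0.48 and 2.00 (-1.52 ± 0.12, adjusted p = 1.12e-12). Il10, with -0.01 after ActD, stood at 1.39 at 7 h (-1.41 ± 0.14, adjusted p = 3.94e-10). Tnf differed least of the fixed cytokines, with 0.98 and 1.24 (-0.26 ± 0.09, adjusted p = 0.0338), a call that left-out libraries can end. Of the macrophage effector genes 18 of 31 were more negative and 3 more positive, and of proliferation genes 7 of 26 were more negative.

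The largest of these interactions lay in both directions. Ddit4, F3, Trem1, Socs1 and Nr4a1 were higher in KO at 7 h, by log2 differences of 3.02, 2.88, 2.94, 1.84 and 2.63, and not called after ActD. Trem1, a receptor that amplifies inflammation, was at 5.62, 6.83 and 5.15 against 4.51, 5.53 and 6.52 CPM after ActD, while Ddit4, F3, Socs1 and Nr4a1 were at most at 1.34 CPM in any library there. In the other direction Rab3il1, Rasgef1b, Mtss1 and Ptger4 were lower in KO at 7 h (-2.69, -1.66, -1.76 and -1.73) and level or higher after ActD: Rab3il1 was at 33.7, 32.1 and 30.2 against 34.2, 33.9 and 34.8 CPM, and Rasgef1b, an exchange factor for Rap, at 9.58, 8.52 and 9.75 against 6.69, 5.71 and 4.82 CPM.

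The genes that set WT replicate 3 apart were taken by a rule of their own, the 5 highest and 5 lowest in it against the other WT libraries among genes of at least 20 CPM. The highest were Rps14, Saa3, Rps19, Snrpe and Rps24 (log2 deviations from 0.66 to 0.77) and the lowest Crlf2, Rb1, Mark4, an unnamed clone and Arhgap17 (from -0.75 to -0.62). Saa3, an acute-phase protein, was at 7389.9, 7909.6 and 7669.7 CPM in KO and 5064, 5689.6 and 8762 CPM in WT. Its log2 difference of 0.24 did not pass with all 6 libraries (adjusted p = 0.326) and was 0.51 (adjusted p = 0.0369) without WT replicate 3. Rps14, Rps19 and Snrpe were called lower in KO with that library (log2 -0.50, -0.39 and -0.36) and not without it (-0.20, -0.13 and -0.09). Arhgap17 was called lower only without it (-0.25 (adjusted p = 0.0407)).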

How the data were processed

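RNA-seq was measured in 36 mouse macrophage libraries (2 genotypes, 6 conditions, 3 libraries per group), of which 6 carry the comparison and all 36 the estimate of spread. Per the labels' protocols, the macrophages of each group came from 3 individual mice, RNA was made into libraries with the TruSeq RNA Sample Preparation Kit v2 and read as single ends on the HiSeq4000. That kit does not mark strand, so overlapping and antisense genes cannot be told apart. GSNAP and GRCm38 are named per the submitters' processing notes, and the sources used here give neither the counter nor its annotation release. The authors deposited for each library a read count, an RPKM value and a width per gene. The counts were tested as deposited. The deposited RPKM values, which normalize the counts by width and library size, were used only to check the counts, whose totals were 90.9 to 91.8% of those the RPKM values imply. The deposited widths were used for the trend with length. Of 52636 gene identifiers, 52489 were named from GENCODE M21, and the 147 without a name took up to 0.00172% of the counts of the 6 libraries compared.

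The totals of the 36 libraries were 20271550 to 46107214 counts, a range that bears on low genes most. Genes were kept by filterByExpr (13748), scaled by TMM and tested with edgeR 4.0.16 in R 4.3.3 (quasi-likelihood F test, 1 mean per group, biological coefficient of variation 7.48%), with Benjamini-Hochberg adjustment over all tested genes and a threshold of 0.05. Errors of log2 differences are standard errors, and errors of CPM are SD of 3 libraries. The labels do not say whether libraries of different conditions share mice, and the interaction tests, which contrast the genotype difference of 2 conditions, treat them as independent. The same fit was tested on simulated data with 200 changed genes of at least 1 CPM. In the KO to WT comparison it recovered 61.2% of 1.5-fold, 86.6% of 2-fold and 100% of 4-fold changes, with 3 false calls. The simulated libraries were drawn independently, with no library that stands apart, no trend with length and no shared mice. The simulation therefore does not cover these features of the data.

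Named genes were N4bp1, 9 cytokines, the 12 largest rises and 12 largest falls (at least 5 CPM, groups apart, called also without WT replicate 3, no predicted or numbered gene), up to 4 called members per list by smallest p, the 5 largest per interaction and direction (at least 5 CPM) and the 5 highest and 5 lowest genes of WT replicate 3 (at least 20 CPM). The 5 CPM of an interaction is a mean over the libraries of both conditions, so a gene can pass through its level in only 1 condition. Other members are named after their values were seen. The 32 gene lists and the genes were chosen with earlier results of these data known. No test was run on lists, motif classes or lifetime classes. Alternatives were other scalings (RLE, ribosomal and elongation factor genes), filters (none, or 1 CPM in 3 libraries), an adjusted p of 0.01, DESeq2 1.42.0, limma 3.58.1 (voom with sample quality weights), removal of the trend with gene width, a fit of only the compared libraries, and leaving out each library. The GRCm38 coordinates and the 3' untranslated regions are from GENCODE M21. Some members of the lists are counted but not reported by name here.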

Additional observations from a re-analysis of the deposited data

Results flagged for a closer look

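For the genes below the genotype difference, KO minus WT on the log2 scale, after 4 h of ActD differed from that of another condition by edgeR's interaction test, with p-values adjusted over all genes tested. Values are the difference between the 2 genotype differences. Against 3 h of R837, N4bp1 stood at 1.27, Dgat2 at 0.90, Ccr7 at 2.05, Slco4a1 at 1.52, Btla at 1.45 and Fos at 1.13, all more positive after ActD. More negative were Tmem51 at -0.73, Aldh1b1 at -0.71, Phf11d at -0.62, Cd200r4 at -0.59 and Epsti1 at -0.54. Of these 11, N4bp1, Dgat2 and Btla kept the call with each of the 12 libraries left out in turn.

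Against 7 h of R837, the cytokines were more negative after ActD: Il6 at -1.96, Il1b at -1.52, Csf3 at -1.49, Il10 at -1.41, Il12b at -1.27, Cxcl2 at -1.15, Cxcl1 at -1.11, Ccl5 at -0.62 and Tnf at -0.26. Genes were ranked at a mean of at least 5 CPM over the libraries of both conditions, so a gene could pass through its level at 7 h alone. The largest negative values among them were Ddit4 at -3.57, F3 at -3.21, Trem1 at -2.87, Socs1 at -2.81 and Nr4a1 at -2.65. More positive were N4bp1 at 0.89, Ptger4 at 2.77, Rab3il1 at 2.58, Slco4a1 at 2.58, Rasgef1b at 2.37 and Mtss1 at 2.26.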

How the results depend on the processing

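No paired analysis was possible because the labels number no replicates. The 4896 calls stayed within 1.5 times under each alternative tried (3341, without WT replicate 3, to 4811 when single libraries were left out), but scaling to ribosomal genes changed the split from 2439 higher and 2457 lower to 4932 and 616, and the calls of at least 2-fold from 446 to 691 (389 to 515 when leaving out single libraries). The 40 interactions with 3 h became 21 with ribosomal scaling, 73 with DESeq2, 98 without a filter, 12 at an adjusted p under 0.01, 6 in a fit of the 12 libraries alone, and 12 to 40 with 1 library left out (20 without KO ActD replicate 1, 15 without WT ActD replicate 2, 33 without WT ActD replicate 3, 19 of them among the 40, 21, 20 and 22 without KO 3 h replicates 1, 2 and 3, 22 and 12 without WT 3 h replicates 1 and 2). Against 2 h of ActD, 0 became 5 with DESeq2, 8 without a filter and 0 to 2 with 1 library left out. The 2013 interactions with 7 h became 1082 at 0.01 and ranged from 1374, without WT replicate 3, to 2215.

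Of 2054 values of the 137 named genes in the KO to WT comparison under these alternatives, 1976 kept direction and call, 63 lost the call, 5 gained it and 10 turned sign. Those that turned were Il10 (-0.01), at 0.25 with ribosomal scaling, 0.021 without a filter, 0.021 with quality weights, 0.12 with the width trend removed and -0.085 to 0.091 with 1 library left out, Ctsl at 0.048 with ribosomal scaling, and Arhgap17 at 0.18 with it and -0.25 to 0.042 with 1 library left out. Among interactions with 3 h, Tnf turned to -0.011 with quality weights and ranged from -0.046, without WT ActD replicate 3, to 0.10 with 1 library left out, and Ccl5 from -0.28 to 0.096, the latter without WT 3 h replicate 1. Tnf against 7 h became 0.0077 with ribosomal scaling. The cause was not tested. Depth limits low genes most: 1 CPM stood for 20.3 to 46.1 counts before TMM scaling, and a difference below that level can be missed.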
